A study of Homo sapiens with 3 samples.

Results

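Transcripts of 52 genes encoding core spliceosome proteins and partners of USP39 were read in 3 RNA-seq libraries of cells labelled as a human liver cancer line. The genes were listed by name from the proteins of the U1, U2, U5 and U4/U6 particles, the tri-snRNP and the activation complexes, and were matched by symbol to the Ensembl identifiers of the deposited table. All 52 were among its 22827 genes, and 48 of them had at least 10 reads in 1 or more libraries. Grouped by particle or stage, they comprised 8 genes of the U5 snRNP, 6 of the U4/U6 snRNP, 7 of the LSM2-8 ring, 6 of tri-snRNP joining and the B complex, 3 of the U1 snRNP, 11 of the U2 snRNP, 6 of the PRPF19 complex and activation, and 5 DEAH helicases and proteins of the second step.

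The spliceosome is built anew on each intron from small nuclear ribonucleoprotein particles (snRNPs), each a small RNA with its own proteins. U1 reads the 5′ splice site and U2 the branch point, after which the U4/U6.U5 tri-snRNP joins to form the B complex. The helicase SNRNP200 then unwinds U4 from U6, the PRPF19 complex stabilises the active centre, and DEAH helicases drive the chemical steps and the release of the product. USP39, the counterpart of yeast Sad1, has a ubiquitin protease fold without protease activity and is needed for the tri-snRNP to join.

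The libraries came from cells labelled Hep3B, an established hepatocellular carcinoma line: 1 with a knockout of USP39 (USP39-KO), 1 with a knockout of SIRT7 (SIRT7-KO), which encodes a nuclear deacylase of the sirtuin family, and 1 control. The labels name no other allele, treatment or time, and do not say how the knockouts were made or whether each line is 1 clone. With 1 library per group no difference has a replicate check, no test was made, and every comparison describes these libraries rather than the genotypes. Fewer cells of a type and less RNA per cell cannot be told apart in such libraries.

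Counts summed to between 16151522 and 19427940 per library. The 52 genes together held 0.814% of the counts in USP39-KO (exact binomial 95% interval 0.810 to 0.818), 0.754% in SIRT7-KO (0.750 to 0.758) and 0.790% in the control (0.786 to 0.794). These and all other intervals cover counting error only. Defining markers of the labelled cell type were largely unread: no library had a read for ALB, AFP, TTR, APOA2, APOB or GPC3. Some genes that every cell uses had no reads either, so a listed 0 alone does not show that a gene was silent. Why these markers were unread was not tested, and the identity of the cells rests on the labels alone. In all, 8 of 10 hepatocyte markers had under 10 reads in each library. The 10 together summed to 1.94, 0.613 and 8.85 CPM (counts scaled to library size) in USP39-KO, SIRT7-KO and the control. Most of this came from HNF4A (29, 7 and 113 reads) and FGB (1, 2 and 55 reads). The 3 epithelial markers summed to 1585, 1718 and 2068 CPM in the same libraries, nearly all from KRT8. Of the other lists, 5 fibroblast markers summed to 139, 113 and 118 CPM, mostly from COL1A1 (126, 93.3 and 102 CPM). PDGFRB had 13.2, 20.0 and 15.5 CPM, COL1A2 was at 0, and DCN and LUM had under 10 reads in each library. The 3 endothelial markers summed to at most 0.735 CPM, and the 4 immune markers to at most 0.735 CPM with PTPRC and CD68 at 0. The part of these markers in the results was not tested.

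USP39 was the 1 member that fell in the library named for its knockout, to 0.688 times its control level. USP39 (ENSG00000168883) lies on chromosome 2, from 85602856 to 85649282 on the plus strand in GENCODE 29, with 13 exons in its principal transcript. It had 1066 reads in USP39-KO, 1511 in SIRT7-KO and 1829 in the control. After scaling, USP39-KO (64.8 CPM) stood apart, while SIRT7-KO (92.6) and the control (94.1) lay close together. Here and below, a log2 ratio is taken between normalized counts and followed by its 95% interval. For USP39 it was -0.54 (-0.65 to -0.43) in USP39-KO against control and -0.02 (-0.12 to 0.08) in SIRT7-KO against control. Among 7276 genes in the range of levels between the 5th and 95th percentiles of the members (20.3 to 455 CPM on average over the libraries), 138 (1.90%) had a lower ratio than USP39 in USP39-KO. A read count for the gene as a whole says nothing of where it was edited or of its protein.

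Other genes of the region had their own ratios. The 16 other genes within 500 kb of USP39 and with 200 reads or more over the 3 libraries had log2 ratios in USP39-KO between -0.38 (MAT2A, which makes S-adenosylmethionine) and 0.93 (ATOH8, a transcription factor), with a median of -0.02. MAT2A was also low in SIRT7-KO, at -0.42. C2orf68 overlaps USP39, and its ratio was 0.00 (-0.14 to 0.15) in USP39-KO and -0.32 (-0.47 to -0.16) in SIRT7-KO. TMEM150A, which overlaps it too, had 0.38 (0.04 to 0.73) in USP39-KO. The sources used here do not state whether counting used strand, and reads of overlapping genes cannot be told apart. Among the members, 15 overlap another gene with at least 100 reads over the 3 libraries, and only some of these overlaps are named below.

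**Figure D1:**
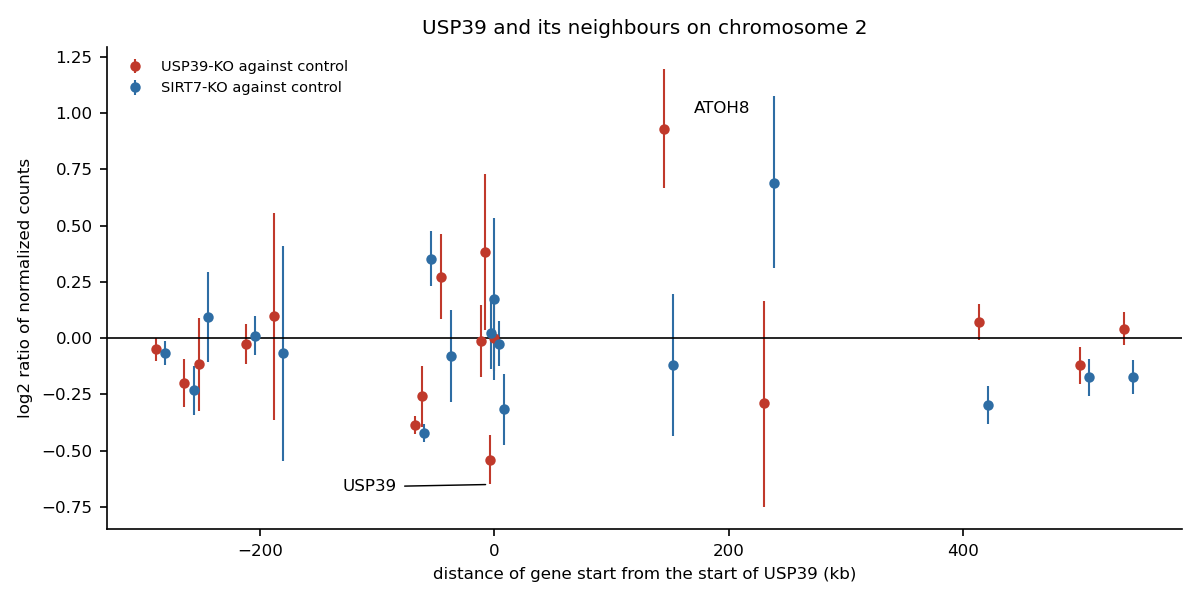
Log2 ratio of USP39 and 16 neighbouring genes against the control (vertical axis) by distance of the gene start from that of USP39 in kb (horizontal axis). Red points are USP39-KO, blue points SIRT7-KO, offset sideways so that both can be seen, and bars are 95% counting intervals. USP39 in USP39-KO, at -0.54, is the lowest red point.

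SIRT7 (ENSG00000187531), the other targeted gene, had 808 reads in USP39-KO, 608 in SIRT7-KO and 984 in the control. Its log2 ratio was -0.44 (-0.59 to -0.30) in SIRT7-KO and -0.04 (-0.18 to 0.09) in USP39-KO, so each targeted transcript was lowest in the library named for it. Among the 7276 genes in the same range of levels, 438 (6.02%) had a lower ratio than SIRT7 in SIRT7-KO.

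Promoter sequences are shown for USP39 and for the 3 members that reached the highest ratios in a knockout library: SART1 and BUD31 in USP39-KO, and LSM7 in SIRT7-KO. Each is the 250 bases before the start that RefSeq gives for the gene on GRCh38.p14, written 5′ to 3′ on the strand of the gene. They lie at chr2:85602611-85602860 (plus), chr11:65961484-65961733 (plus), chr7:99408719-99408968 (plus) and chr19:2328587-2328836 (minus), in the order USP39, SART1, BUD31, LSM7. The RefSeq starts lie downstream of the gene starts in GENCODE 29, by 5 bases for USP39, 45 for SART1, 328 for BUD31 and 34 for LSM7, so the BUD31 stretch lies wholly after its GENCODE start. Capitals mark the SP/KLF motif GGGCGG, the NRF1 motif GCATGCGC and the ETS motif CCGGAAG on either strand, which may overlap.
USP39: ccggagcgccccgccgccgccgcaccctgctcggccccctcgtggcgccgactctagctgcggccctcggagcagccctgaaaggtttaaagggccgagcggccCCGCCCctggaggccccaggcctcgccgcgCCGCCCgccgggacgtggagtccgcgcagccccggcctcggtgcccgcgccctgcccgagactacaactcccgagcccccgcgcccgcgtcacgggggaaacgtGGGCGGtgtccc
SART1: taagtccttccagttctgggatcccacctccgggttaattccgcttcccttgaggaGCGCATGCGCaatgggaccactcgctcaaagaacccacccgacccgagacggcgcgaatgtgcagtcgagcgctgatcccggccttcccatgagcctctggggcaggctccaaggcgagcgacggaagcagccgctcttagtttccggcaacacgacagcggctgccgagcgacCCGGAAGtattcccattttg
BUD31: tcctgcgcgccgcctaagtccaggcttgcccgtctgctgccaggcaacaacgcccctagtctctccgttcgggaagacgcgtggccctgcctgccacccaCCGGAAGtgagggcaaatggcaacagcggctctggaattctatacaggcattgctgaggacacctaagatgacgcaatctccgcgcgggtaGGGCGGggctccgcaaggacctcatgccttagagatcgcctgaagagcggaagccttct
LSM7: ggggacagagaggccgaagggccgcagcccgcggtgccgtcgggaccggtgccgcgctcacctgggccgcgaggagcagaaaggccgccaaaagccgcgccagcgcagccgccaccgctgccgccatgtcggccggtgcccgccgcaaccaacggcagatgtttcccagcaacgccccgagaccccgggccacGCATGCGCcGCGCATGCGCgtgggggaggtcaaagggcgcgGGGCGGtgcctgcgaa
The USP39 stretch holds the SP/KLF motif at 3 places and neither of the other 2. SART1 and LSM7 hold the NRF1 motif on both strands at overlapping places, and LSM7 a further copy beside it. SART1 and BUD31 hold the ETS motif, and BUD31 and LSM7 the SP/KLF motif.

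Promoters of 45 of the 52 genes were matched by symbol and searched for 7 motifs on both strands, from 250 bases before to 50 after the start. The ETS motif, bound by a large family of activators, was present in 23 of the 45 (51.1%), against 19.0% of 10005 promoters of genes with at least 10 reads and 10.7% of all 27305 promoters. By group it was found in 7 of 9 matched U2 genes and 4 of 5 DEAH and second-step genes, against 3 of 8 U5 genes, 3 of 6 PRPF19 genes, 2 of 6 LSM genes, 2 of 5 joining and B complex genes, and 1 of 3 in both U4/U6 and U1. SP/KLF was in 64.4% of the members against 70.0% of genes with reads, NF-Y (CCAAT) in 40.0% against 36.4%, and a TATA box (TATAAA) in 2.22%, SNRPC alone, against 5.58%. NRF1 was in 4 members (8.89% against 5.51%), YY1 (AAGATGGC) in 5 (11.1% against 5.30%) and the cyclic AMP element (TGACGTCA) in 2 (4.44% against 3.32%). Median GC content was 61.0% in the members and 65.3% in genes with reads. The 22 measured members with the ETS motif had a median log2 ratio of 0.09 in USP39-KO and -0.11 in SIRT7-KO, against 0.03 and -0.03 for the 20 matched members without it. No motif share was taken among genes in the same range of levels or among other spliceosome genes. The ETS share is therefore not shown to be particular to the members. A match shows that the letters occur, not that a factor binds.

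Apart from USP39, no measured transcript among the members differed from the control by more than 0.30 on the log2 scale in USP39-KO. The words rose and fell are kept for genes whose log2 ratio was at least 0.32 (0.322 before rounding) in size with an interval that excluded 0. By that rule 0 of the 48 measured members rose and 1, USP39, fell in USP39-KO. Over all 12726 genes with at least 10 reads, 7.61% rose and 11.4% fell, and among the 7276 genes in the same range of levels 5.51% and 6.57% did. By size alone 47 of 48 members (97.9%) lay within 0.32 of the control, as did 87.9% of genes in the range. At 2-fold no member was counted, against 4.86% of all genes compared. In the range only 0.234% of genes were higher and 0.302% lower by that much. The members' median log2 ratio was 0.05, with 36 above 0 and 12 below, beside -0.00 over all genes compared and 0.02 in the range. Above 0 lay 75.0% of the members, 49.6% of all genes compared and 54.3% of genes in the range. Intervals lay wholly above 0 for 21 members and wholly below for 3, namely USP39, SF3B5 and PRPF19. In the range they lay above 0 for 28.0% of genes and below for 23.7%. Members closest to the rule without reaching it were BUD31 (0.30), SART1 (0.29) and LSM7 (0.28), and on the other side SF3B5 (-0.24).

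In SIRT7-KO the members lay slightly lower as a set. By the rule 1 member, LSM7, rose and 0 fell, beside 14.9% and 15.0% of all genes compared and 12.6% and 11.4% of genes in the range. At 2-fold none was counted, against 7.06% of all genes compared. In the range only 0.605% of genes were higher and 0.756% lower by that much. By size 46 of 48 (95.8%) lay within 0.32, against 76.0% in the range. The median log2 ratio was -0.07, with 14 members above 0 and 34 below, beside -0.01 over all genes compared and in the range. Above 0 lay 29.2% of the members, 48.7% of all genes compared and 49.0% of genes in the range. Intervals lay wholly above 0 for 5 members and below for 18, against 32.1% and 32.9% of genes in the range. PLRG1 and SF3B5 (-0.32 each), CDC5L (-0.31), PPIH and AQR (-0.30 each) and LSM8 (-0.29) were closest to the rule without reaching it, and PLRG1 and SF3B5 pass it under some other scalings.

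Set directly against SIRT7-KO, USP39-KO had 6 members that rose, BUD31, LSM8, PLRG1, PRPF8, SF3A3 and SNRPC, and 1, USP39, that fell. With counts scaled by library totals alone 4 rose, without PRPF8 and SNRPC. Over all genes compared 17.0% rose and 18.3% fell, and in the range 15.9% and 15.3%. At 2-fold none was counted, against 8.54%. The median was 0.15, with 37 members above 0 and 11 below, beside 0.00 over all genes compared and 0.02 in the range. Above 0 lay 77.1% of the members, 50.4% of all genes compared and 52.1% of genes in the range. Intervals lay wholly above 0 for 28 members and wholly below for 5, against 36.1% and 32.6% of genes in the range. By size 39 of 48 (81.2%) lay within 0.32, against 68.8% in the range. The 3 comparisons share libraries in pairs, so their values are not independent of each other.

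**Figure D2:**
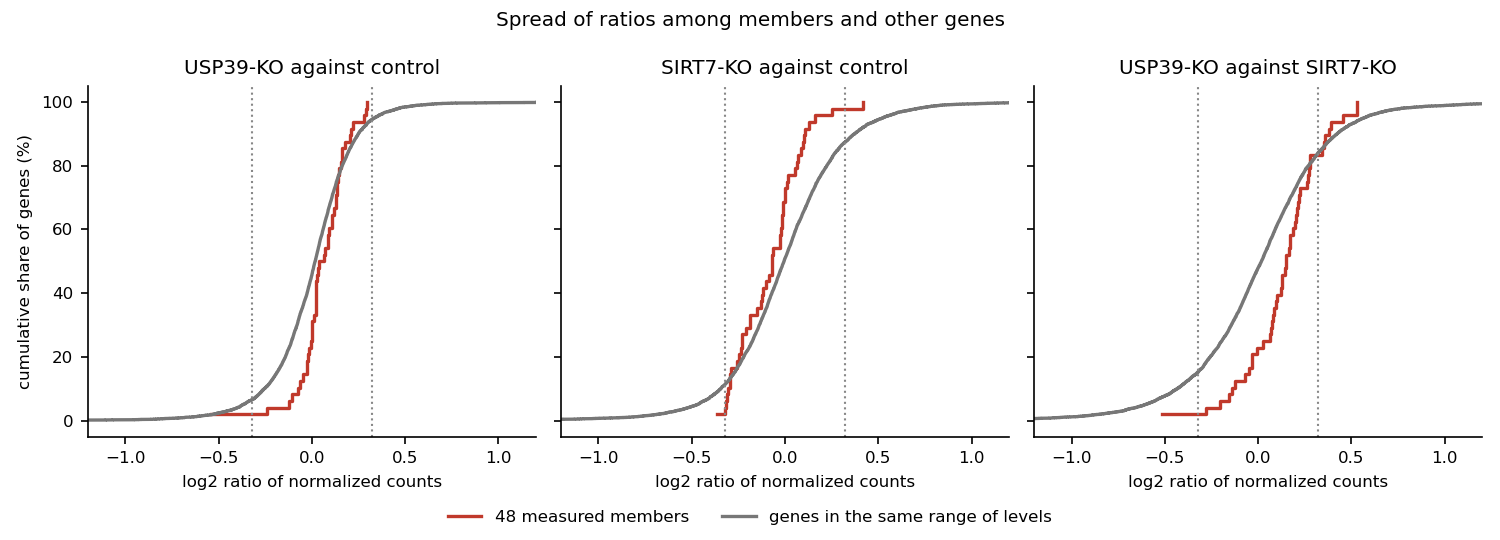
Cumulative share of genes (vertical axis, %) by log2 ratio of normalized counts (horizontal axis) in the 3 comparisons. Red lines are the 48 measured members, grey lines the 7276 genes in the same range of levels, and dotted lines mark 0.32 either way; the red lines cross the central values within a narrower span, with medians of 0.05, -0.07 and 0.15.

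**Figure D3:**
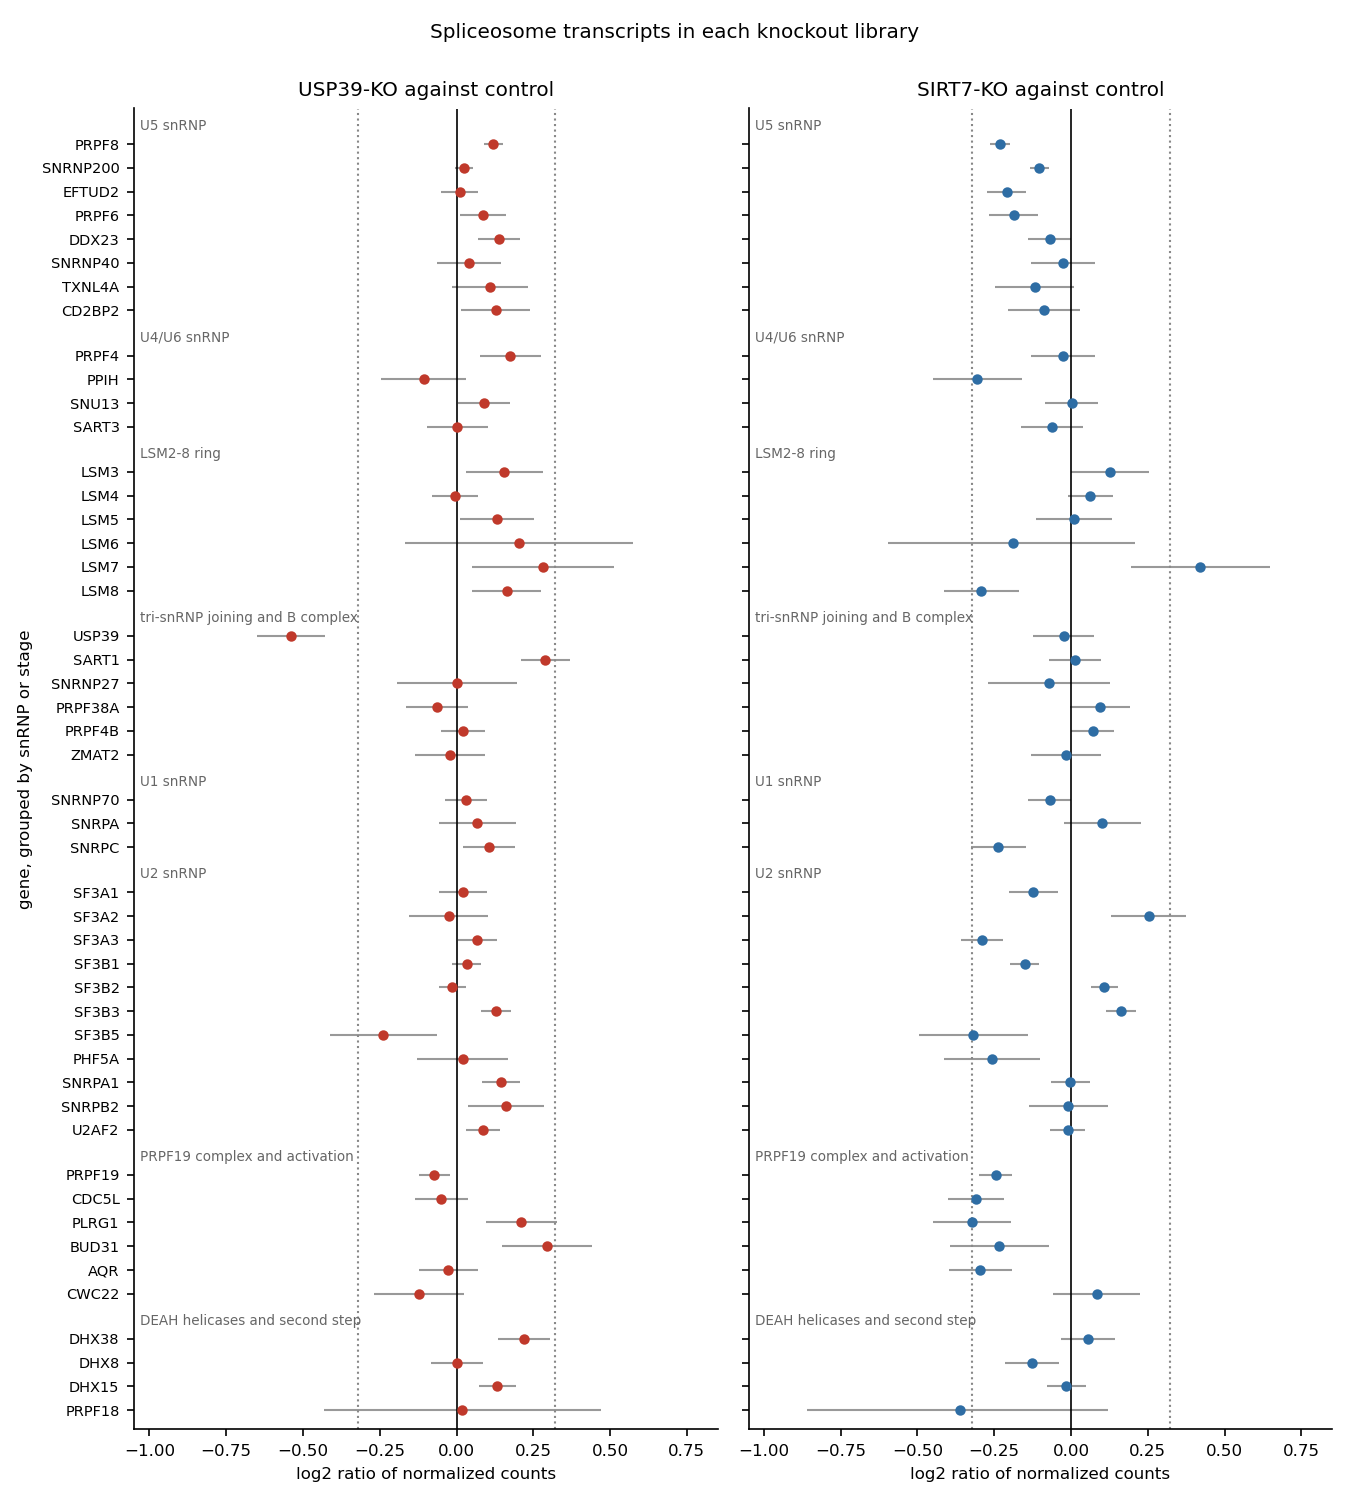
Log2 ratio against the control of each measured member in USP39-KO (left) and SIRT7-KO (right), grouped by particle or stage, with 95% counting intervals; dotted lines mark 0.32. USP39 (-0.54) is the member past the rule on the left and LSM7 (0.42) on the right.

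U5 carries the largest spliceosome proteins, and all 8 of its transcripts lay above 0 in USP39-KO and below 0 in SIRT7-KO, none past the rule. With library totals EFTUD2 moved below 0 in USP39-KO and 7 stayed above it. The group median was 0.10 in USP39-KO, -0.11 in SIRT7-KO and 0.22 between them. PRPF8, the scaffold around the catalytic centre, had 1023 CPM in USP39-KO, 802 in SIRT7-KO and 941 in the control. SIRT7-KO was the low library, with a log2 ratio of -0.23 (-0.26 to -0.20), while USP39-KO had 0.12 (0.09 to 0.15). The direct ratio of 0.35 (0.32 to 0.38) passed the rule, though not with library totals (0.32). SNRNP200, the U4/U6 unwinding helicase, had 984, 901 and 968 CPM in the same order of libraries. EFTUD2, the GTPase of U5, had 259, 222 and 257 CPM, and PRPF6, which bridges U5 to U4/U6, 164, 136 and 155 CPM. In both, SIRT7-KO was the low library, at -0.21 (-0.27 to -0.15) and -0.19 (-0.27 to -0.11), and USP39-KO was within 0.09 of the control. DDX23, the helicase that opens the 5′ splice site to U6, had the highest U5 ratio in USP39-KO at 0.14 (0.07 to 0.21), with 210, 182 and 191 CPM. SNRNP40, a WD-repeat protein, had 85.8, 81.9 and 83.4 CPM, the narrowest span of the group. TXNL4A (Dim1 in yeast) had 62.8, 53.6 and 58.2 CPM, and CD2BP2, which leaves U5 before the tri-snRNP forms, 75.0, 64.6 and 68.6 CPM. TXNL4A overlaps HSBP1L1, whose ratios had the same signs, 0.48 in USP39-KO and -0.09 in SIRT7-KO. For SNRNP40 and TXNL4A both intervals included 0.

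Of the 6 U4/U6 genes, 4 were measured and none passed the rule, with group medians of 0.05 in USP39-KO and -0.04 in SIRT7-KO. PPIH, a cyclophilin of the particle, was the lowest in both libraries, with 757 reads in USP39-KO, 654 in SIRT7-KO and 962 in the control. Its log2 ratio was -0.11 (-0.25 to 0.03) in USP39-KO and -0.30 (-0.45 to -0.16) in SIRT7-KO. Its partner PRPF4 had the highest ratio in USP39-KO, 0.18 (0.08 to 0.28), with 96.4, 83.8 and 85.3 CPM. SNU13, which binds the U4 stem loop, had 133, 125 and 125 CPM, and SART3, which reanneals U4 with U6 for another round, 91.3, 87.3 and 91.1 CPM. Neither differed from the control by more than 0.09 in either knockout library.

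PRPF3 and PRPF31, the remaining U4/U6 proteins, could not be read, nor could LSM2 and DHX16. PRPF3 had 1 read in each library and the other 3 had 0, where 0 reads allow up to 0.182, 0.184 and 0.154 CPM in USP39-KO, SIRT7-KO and the control. All 4 encode proteins that the spliceosome of every cell uses, and their neighbours were often unread too. Of protein-coding genes within 1 Mb, 46 of 59 around PRPF31 (78.0%), 71 of 93 around LSM2 (76.3%), 49 of 67 around DHX16 (73.1%) and 21 of 59 around PRPF3 (35.6%) had 0 reads in all 3 libraries. Over all 19130 protein-coding genes in the table the share was 23.1%, and around the measured members its median was 10% and its highest value 58.3%. The windows of LSM2 and DHX16 overlap on chromosome 6. The unread neighbours include TUBB, a tubulin, beside DHX16, and RPS9, a ribosomal protein, beside PRPF31. They also include immune genes, such as LILRB1 and KIR2DL1 around PRPF31 and HLA-DRA and TNF around LSM2. The shares therefore do not separate genes silent in these cells from genes whose reads were not counted. The cause was not tested.

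**Figure D4:**
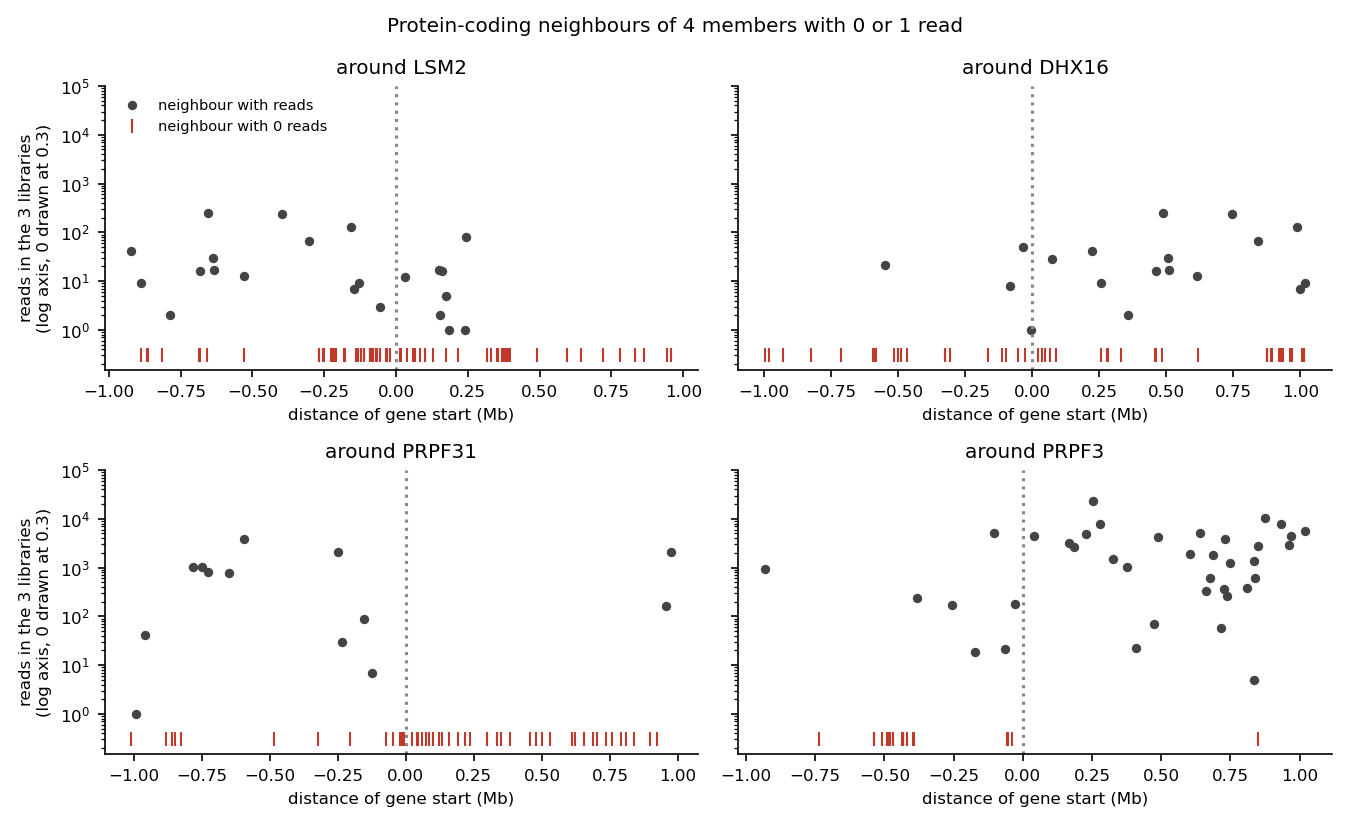
Reads in the 3 libraries together (vertical axis, log scale, 0 drawn at 0.3) for protein-coding genes within 1 Mb of LSM2, DHX16, PRPF31 and PRPF3, by distance of the gene start in Mb. Black points have reads and red ticks have 0; ticks crowd around LSM2, DHX16 and PRPF31, where 76.3%, 73.1% and 78.0% of neighbours were at 0.

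The LSM2-8 ring, which holds the 3′ end of U6 RNA, contained the 1 member that rose in SIRT7-KO. LSM7 (ENSG00000130332) had 316 reads in USP39-KO, 345 in SIRT7-KO and 307 in the control, or 19.2, 21.1 and 15.8 CPM. Both knockout libraries lay above the control, with log2 ratios of 0.28 (0.05 to 0.51) in USP39-KO and 0.42 (0.19 to 0.65) in SIRT7-KO, or 1.34-fold in SIRT7-KO. LSM8, the subunit that sets the nuclear ring apart from the cytoplasmic LSM1-7 ring, lay below the control in SIRT7-KO. It had 77.6, 56.6 and 69.3 CPM, with log2 ratios of 0.16 (0.05 to 0.27) in USP39-KO and -0.29 (-0.41 to -0.17) in SIRT7-KO. Its direct ratio, 0.46 (0.33 to 0.58), passed the rule. LSM7 and LSM8, whose proteins meet in 1 ring, thus lay on opposite sides of the control in SIRT7-KO. The ring's median was 0.16 in USP39-KO and 0.04 in SIRT7-KO. LSM3 had 61.5, 60.3 and 55.2 CPM, LSM4 167, 175 and 168 CPM, and LSM5 65.8, 60.4 and 60.0 CPM. LSM6 had only 122, 92 and 125 reads, and its intervals were -0.17 to 0.58 in USP39-KO and -0.60 to 0.21 in SIRT7-KO, too wide to place it within 0.32.

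Among the 5 other proteins of tri-snRNP joining and the B complex, SART1 (ENSG00000175467) stood highest in USP39-KO. SART1, a stable tri-snRNP protein, had 2533 reads in USP39-KO, 2074 in SIRT7-KO and 2446 in the control, or 154, 127 and 126 CPM. USP39-KO was the high library and the other 2 were alike, with log2 ratios of 0.29 (0.21 to 0.37) in USP39-KO and 0.01 (-0.07 to 0.10) in SIRT7-KO. This was 1.22-fold, short of the rule. The remaining 4 were near the control in both knockout libraries. SNRNP27 had 24.2, 23.0 and 24.1 CPM, and ZMAT2 (Snu23 in yeast) 70.3, 70.5 and 71.3 CPM. PRPF38A, which enters with the B complex, had 88.2, 98.4 and 92.1 CPM, and PRPF4B, a kinase of the tri-snRNP, 181, 187 and 178 CPM. Their ratios lay between -0.07 (SNRNP27) and 0.10 (PRPF38A) in SIRT7-KO, and no interval of the 4 excluded 0 in USP39-KO. With USP39 the group median was -0.01 in USP39-KO and -0.00 in SIRT7-KO.

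The 3 U1 proteins differed from one another in SIRT7-KO. SNRPC, which steadies the pairing of U1 with the 5′ splice site, had 132 CPM in USP39-KO, 104 in SIRT7-KO and 123 in the control. Its log2 ratio was 0.11 (0.02 to 0.19) in USP39-KO and -0.24 (-0.33 to -0.15) in SIRT7-KO, and the direct ratio of 0.34 (0.25 to 0.44) passed the rule, though not with library totals (0.31). SNRPA, which binds a U1 stem loop, had 59.2, 60.6 and 56.5 CPM, and its ratio in SIRT7-KO was 0.10 (-0.02 to 0.23). SNRNP70 had 194, 181 and 190 CPM, with ratios of 0.03 and -0.07. SNRPC has 18 named pseudogenes in GENCODE 29, and the sources used here do not state how reads shared with them were counted. The same holds for PPIH, LSM3, LSM6, PRPF38A, SF3A3, PRPF19 and BUD31, which have from 1 to 4 each.

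U2 recognises the branch point through the SF3A and SF3B complexes, and its 11 transcripts went in both directions in SIRT7-KO without passing the rule. SF3A2 had 914 reads in USP39-KO, 1099 in SIRT7-KO and 1098 in the control, or 55.5, 67.3 and 56.5 CPM. It was the highest of the group in SIRT7-KO at 0.25 (0.13 to 0.37), while its partner SF3A3 had 230, 180 and 220 CPM and a ratio of -0.29 (-0.36 to -0.22). SF3A3 passed the rule in the direct comparison (0.36, 0.29 to 0.43), and SF3A1 had 153, 139 and 151 CPM. The 3 SF3A transcripts, whose proteins form 1 complex, so lay on both sides of the control in SIRT7-KO. SF3A2 overlaps PLEKHJ1, whose ratio there was -0.38.

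In the SF3B complex, SF3B5, its smallest protein and encoded by 1 exon, was lowest in both knockout libraries. It had 469 reads in USP39-KO, 440 in SIRT7-KO and 653 in the control, with log2 ratios of -0.24 (-0.41 to -0.06) and -0.32 (-0.50 to -0.14). Both knockout libraries lay below the control, close to each other. PHF5A, which lines the pocket for the branch point adenosine, had 42.9, 35.4 and 42.3 CPM, low in SIRT7-KO at -0.26 (-0.41 to -0.10). SF3B1, the scaffold mutated in several blood cancers, had 423, 373 and 414 CPM. SF3B2 had 470, 512 and 475 CPM and SF3B3 397, 407 and 363 CPM, so that both were above the control in SIRT7-KO, at 0.11 (0.07 to 0.15) and 0.16 (0.11 to 0.21), where SF3B1 was below it at -0.15 (-0.20 to -0.10). The U2 RNA-binding pair SNRPA1 (243, 219 and 220 CPM) and SNRPB2 (62.6, 55.6 and 56.0 CPM) had like ratios, 0.15 and 0.16 in USP39-KO and -0.00 and -0.01 in SIRT7-KO. U2AF2, which reads the polypyrimidine tract, had 291, 272 and 274 CPM. Group medians were 0.03 in USP39-KO and -0.01 in SIRT7-KO.

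The PRPF19 complex and activation group was the lowest of the 8 groups in SIRT7-KO, with a median of -0.27 and 5 of 6 members below 0, none of them past the rule. PLRG1 (Prp46 in yeast), a WD-repeat core subunit, had 1214 reads in USP39-KO, 832 in SIRT7-KO and 1238 in the control, or 73.8, 51.0 and 63.7 CPM. USP39-KO was the high library at 0.21 (0.10 to 0.33) and SIRT7-KO the low one at -0.32 (-0.45 to -0.19). The direct ratio was 0.53 (0.40 to 0.66), or 1.45-fold. CDC5L, the Myb-like core subunit, had 122, 102 and 126 CPM, and PRPF19, the ubiquitin ligase that names the complex, 330, 293 and 347 CPM. AQR, a helicase of the intron-binding complex, had 96.5, 80.1 and 98.4 CPM. In these 3 SIRT7-KO was the low library, at -0.31 (-0.40 to -0.22), -0.25 (-0.30 to -0.19) and -0.30 (-0.40 to -0.19), and in USP39-KO the ratios were -0.05, -0.07 (-0.12 to -0.02) and -0.03. CWC22, which delivers the exon junction factor EIF4A3, was the exception, with 40.9, 47.2 and 44.5 CPM and 0.08 (-0.06 to 0.23) in SIRT7-KO.

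BUD31 (ENSG00000106245), a zinc-binding protein of the activated complex, had the highest ratio of all members in USP39-KO. It had 787 reads in USP39-KO, 541 in SIRT7-KO and 757 in the control, or 47.8, 33.1 and 39.0 CPM, so the 2 knockout libraries lay on either side of the control. The log2 ratio was 0.30 (0.15 to 0.44) in USP39-KO, or 1.23-fold, -0.23 (-0.39 to -0.07) in SIRT7-KO and 0.53 (0.37 to 0.69) between them. BUD31 overlaps PDAP1, a more abundant gene with 3729, 3496 and 3949 reads, whose ratios were 0.16 and 0.08. Genes within 5 Mb of these members, with at least 200 reads, had median ratios in SIRT7-KO of 0.00 around PLRG1, -0.03 around CDC5L, -0.05 around AQR, -0.07 around PRPF19 and 0.02 around BUD31.

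The DEAH helicases remodel the spliceosome through the chemical steps and release, and none of the 4 measured genes of this group passed the rule. DHX38 (Prp16 in yeast), which acts between the steps, had 2231 reads in USP39-KO, 1973 in SIRT7-KO and 2262 in the control, or 136, 121 and 116 CPM. It was the highest of the group in both libraries, at 0.22 (0.13 to 0.30) in USP39-KO and 0.05 (-0.03 to 0.14) in SIRT7-KO. DHX38 overlaps TXNL4B, with ratios of 0.29 and -0.58. DHX8 (Prp22), which releases the mRNA, had 125, 115 and 125 CPM, and DHX15 (Prp43), which takes the spent complex apart, 255, 230 and 232 CPM. DHX15 had a ratio of 0.13 (0.07 to 0.19) in USP39-KO. PRPF18, a second-step factor, had only 79, 60 and 92 reads, and its ratio of -0.36 in SIRT7-KO had an interval of -0.86 to 0.12.

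Levels of different genes were set side by side per length, as the deposited FPKM, in which members differed far more from one another than any did between libraries. The median member had 23.8 FPKM in the control, above 83.6% of genes compared, whose median was 6.16. PRPF19 was the highest at 119, 108 and 127 FPKM in USP39-KO, SIRT7-KO and the control, and LSM6 the lowest measured in the control at 2.82, 2.19 and 2.47 FPKM. By level USP39 was number 35 of 48 in USP39-KO (16.2 FPKM), number 23 in SIRT7-KO (23.7 FPKM) and number 25 among control values (23.8 FPKM).

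Within each group, transcript levels per length were unequal. In U5 the control held 88.2 FPKM of SNRNP200 and 82.9 of PRPF8, against 18.2 of CD2BP2, a range of 4.85-fold. The U4/U6 genes ran between 44.9 FPKM (SNU13) and 12.5 (SART3), and the joining and B complex genes between 39.6 (ZMAT2) and 10.6 (SNRNP27). The LSM ring had the widest range, with LSM4 at 55.4 FPKM and LSM6 at 2.47, or 22.4-fold. In U1, SNRPC had 96.3 FPKM and SNRPA 23.9, and in U2, U2AF2 had 66.5 and SF3A2 18.1. The PRPF19 group spanned 12.6-fold down to AQR (10.1 FPKM), and the DEAH and second-step group 11.2-fold between DHX15 (28.5) and PRPF18 (2.54). The listed gene length behind FPKM was between 0.742 and 4.76 times that of the principal transcript (median 1.48). Per kilobase of the principal transcript the range widened to 8.14-fold in U5, 9.12-fold in U2 and 28.1-fold in the DEAH and second-step group. The LSM ring was still the widest at 30.9-fold, and the PRPF19 group spanned 15.8-fold. The joining and B complex group narrowed to 3.23-fold. On that scale some of the named genes change: SNRPA1 was the highest member in the control at 208, above PRPF19 at 161, and PRPF18 (2.76) was below LSM6 (2.85). Within U2 the extremes became SNRPA1 and SNRPB2, and TXNL4A replaced CD2BP2 as the lowest of U5. For SNRPB2 and TXNL4A the principal transcript is longer than the listed length, which is 0.742 and 0.906 times it. The lengths may come from different annotations of these genes, so their places on this scale are uncertain.

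**Figure D5:**
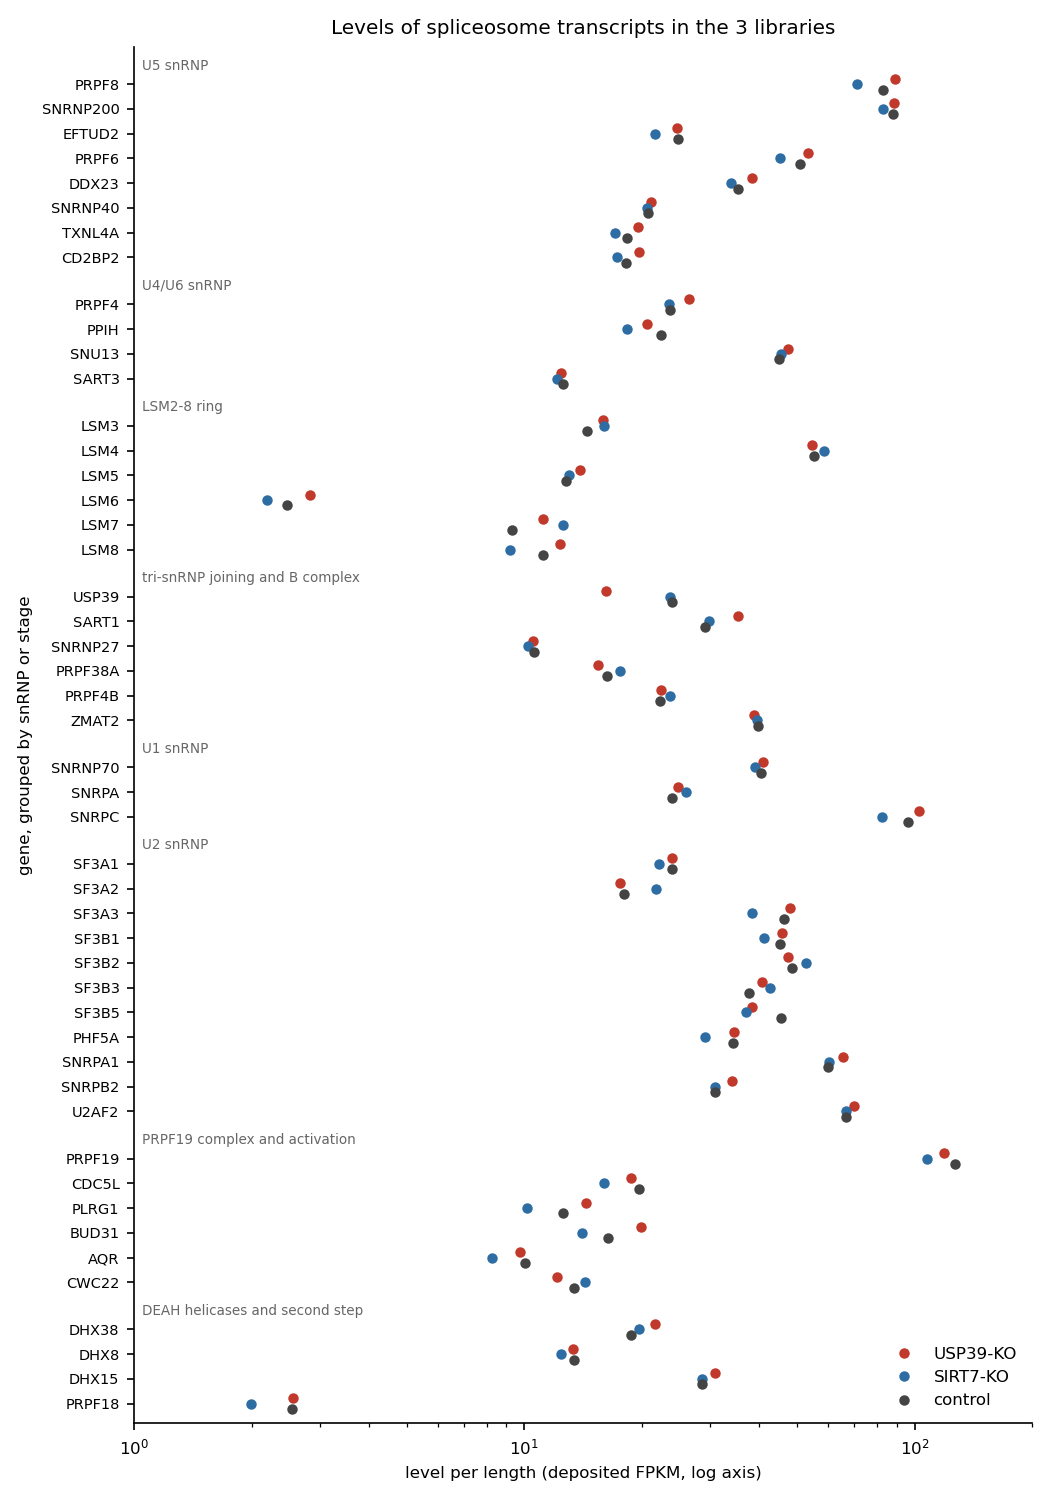
Deposited FPKM (horizontal log axis) of each measured member in USP39-KO (red), SIRT7-KO (blue) and the control (black), grouped by particle or stage. The 3 points of a gene lie close together beside the distance between genes, which in the control runs between 127 FPKM for PRPF19 and 2.47 for LSM6; USP39 in USP39-KO (16.2) is apart from its other 2 points (23.7 and 23.8).

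A further 103 spliceosome genes were listed by function, of which 98 had at least 10 reads. In USP39-KO 10 rose and 7 fell by the same rule (10.2% and 7.14%), beside the 7.61% and 11.4% of all genes compared, with a median log2 ratio of 0.03. The largest fall was in the minor spliceosome, which removes a rare class of introns. RNPC3, the U11/U12 protein that binds U12 RNA, had 348 reads in USP39-KO, 732 in SIRT7-KO and 1030 in the control. USP39-KO was the low library, with a log2 ratio of -1.32 (-1.51 to -1.15), against -0.24 (-0.38 to -0.10) in SIRT7-KO. RNPC3 overlaps AMY2B, which had 95, 194 and 242 reads and a ratio of -1.11 in USP39-KO, and their reads cannot be told apart. Of the 11 measured minor spliceosome genes 1 other, SNRNP35, passed the rule in USP39-KO, at 0.44. SNRNP35 overlaps RILPL1, whose ratio there was 0.03.

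Of the 15 measured genes listed for the C complex, exon junction and disassembly, 4 rose in USP39-KO (EIF4A3, FAM50A, MAGOH and MAGOHB) and 1, GCFC2, fell (26.7% and 6.67%), beside the 7.61% and 11.4% of all genes compared. No other list of these genes had as high a share that rose. The share was 9.09% for the Sm ring and its assembly and 5.88% for other U1 and U2 proteins. It was 6.06% for other B complex and activation proteins and 9.09% for the minor spliceosome. In each of those lists an equal share fell. FAM50A had only 27, 15 and 15 reads. EIF4A3, which anchors the exon junction complex that marks spliced exons, had 5614 reads in USP39-KO, 3360 in SIRT7-KO and 4802 in the control, with log2 ratios of 0.46 (0.41 to 0.52) in USP39-KO and -0.26 (-0.33 to -0.20) in SIRT7-KO. MAGOH had 496, 263 and 426 reads and MAGOHB, its near copy, 494, 399 and 424, each with 0.46 (0.27 to 0.65) in USP39-KO. How reads shared by MAGOH and MAGOHB were counted is not stated in the sources used here. In SIRT7-KO MAGOH fell, at -0.44 (-0.67 to -0.22), and MAGOHB had 0.16 (-0.04 to 0.36). CASC3 had -0.05 in USP39-KO, and RBM8A, with 66, 61 and 60 reads, 0.37 (-0.15 to 0.91). MAGOH, FAM50A, GCFC2, CASC3 and RBM8A were named after their values were seen.

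In SIRT7-KO 3 of the 98 rose and 9 fell (3.06% and 9.18%), beside 14.9% and 15.0% of all genes compared, with a median of -0.04. With library totals 5 rose. CLK1, a kinase of SR proteins, had 1000 reads in USP39-KO, 1759 in SIRT7-KO and 1203 in the control, and a log2 ratio of 0.80 (0.69 to 0.91) in SIRT7-KO. ISY1, a PRPF19-associated protein, had 414, 227 and 440 reads and -0.70 (-0.94 to -0.47), and ECD had 975, 692 and 1202 reads and -0.54 (-0.68 to -0.41). ECD overlaps NUDT13 and FAM149B1, whose ratios in SIRT7-KO were -0.89 and 0.36. PRPF40B, a U1-associated protein, fell in USP39-KO and rose in SIRT7-KO, with 107, 252 and 200 reads and log2 ratios of -0.66 (-1.02 to -0.32) in USP39-KO and 0.58 (0.31 to 0.86) in SIRT7-KO. PRPF40B overlaps FMNL3, whose ratios were -0.03 and -0.67. In the direct comparison 18 of the 98 rose and 9 fell (18.4% and 9.18%), beside 17.0% and 18.3% of all genes compared.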

How the data were processed

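A single table was used, in which the authors give for each gene its length in bases, and in each of 3 libraries its read count and FPKM. Per the labels' protocols, total RNA was extracted with Trizol and prepared with a TruSeq RNA kit; the sources used here do not name the aligner, genome build, annotation or strand setting. The counts are whole numbers per gene, not normalized before they were deposited. The deposited FPKM equal count over listed length and library total, within a relative tolerance of 1e-06 for every gene with reads, so FPKM served only to set levels of different genes side by side.

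Effective library sizes were computed with TMM factors (edgeR 4.0.16, R 4.3.3) from totals of 16630636 (USP39-KO), 16151522 (SIRT7-KO) and 19427940 (control). Log2 ratios used a prior of 0.5 counts, and their 95% intervals are exact conditional binomial (Clopper-Pearson) intervals of both counts (SciPy 1.17.1). They cover counting error only, as PCR copies cannot be set apart without molecular identifiers. A count of 0 allows up to 3 counts. The 12726 genes that reached 10 counts in any library were compared, and called at a log2 ratio of 0.32 or, as a second rule, 1 in size. Genes in the same range of levels have a mean CPM between the 5th and 95th percentiles of the measured members. With 1 library per group, neither edgeR nor DESeq2 tests were run. The interval and call rule were tried on simulated counts with counting error alone, scaled by library totals and with changes larger than the first rule. Those counts hold no variation between libraries, so the trial says nothing of it.

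Symbols and coordinates are from GENCODE 29. The members and lists were chosen with earlier results of these data known. Named were USP39 and SIRT7, members past the first rule, the highest and lowest ratio and FPKM in each group, and up to 4 other spliceosome genes per knockout with at least 100 counts; the remaining members are given for completeness. Alternatives were DESeq2 1.42.0 size factors, library totals, upper quartile, totals without mitochondrial-genome genes, no filter or 100 counts, a prior of 0 or 2 counts, TPM and, chosen after seeing the data, principal transcript length. Promoter motifs were chosen after seeing the data. NRF1 and YY1 were first searched in longer forms, which fewer promoters held, among members and other genes alike; the shares given are for the shorter forms.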

Additional observations from a re-analysis of the deposited data

How the results depend on the processing

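With 1 library per group these results show differences between libraries; clones, cultures and preparation cannot be told apart from genotype, and splicing itself and protein were not measured. For LSM6 and PRPF18, the members with the fewest reads, a log2 difference of 0.32 was not detectable at this depth. No member or named gene that passed the rule changed sign under any alternative. Ratios close to 0 did: library totals moved 4 members below 0 in USP39-KO (DHX8, EFTUD2, SART3 and SNRNP27), which left 32 above it, and 3 above 0 in SIRT7-KO (SNRPA1, SNRPB2 and U2AF2), and in the direct comparison LSM3 moved below 0; DESeq2 size factors or upper quartile scaling also turned LSM4, SNU13 and ZMAT2. Each such ratio was at most 0.03 in size. Library totals also turned the SIRT7-KO medians of the joining and B complex group (-0.00 with TMM) to 0.01 and of U2 (-0.01) to 0.00, and DESeq2 size factors turned that of the joining and B complex group to 0.01. Counts and calls kept to their side of the rule or within 1.5 times of the TMM count except as follows. Members that passed the rule as lower in SIRT7-KO against control numbered 0 with TMM, 2 with upper quartile scaling (SF3B5 at -0.33 and PLRG1 at -0.33) and 1 without mitochondrial-genome genes (PLRG1, -0.32). Other spliceosome genes higher in SIRT7-KO numbered 3 with TMM and 5 with library totals. With library totals SNRPC (0.31) and PRPF8 (0.32) no longer passed in USP39-KO against SIRT7-KO. The highest over lowest level in the control widened with principal transcript length, to 8.14-fold in U5 (4.85-fold with FPKM), 9.12-fold in U2 (3.69-fold) and 28.1-fold in the DEAH and second-step group (11.2-fold), since only the length differs. No paired analysis was possible because each group has 1 library.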
